A study of Mus musculus with 11 samples.

Results

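The MYC and MAX network is a family of basic helix-loop-helix leucine zipper transcription factors, and its 10 members examined here are Myc, Mycn, Mycl, Max, Mxd1, Mxd3, Mxd4, Mxi1, Mnt and Mlx. A member was taken as every array probe set whose only gene symbol in the platform annotation is one of these names. Each of the 10 genes had exactly 1 such probe set, out of 19938 genes on probe sets with a single symbol. No member was at the lowest value of the table in any sample, though whether each was detected above background was not tested.

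RNA came from the thymus of FVB mice and was measured on 11 Affymetrix whole-transcript arrays, 1 for each sample, to ask what loss of the DNA methyltransferase Dnmt3b does in lymphomas driven by MYC. All mice carried EμSR-tTA, a tetracycline-controlled activator active in blood cells, and Rosa26LOXPEGFP, a green fluorescent reporter that is turned on where Cre recombinase has acted. The 3 normal thymocyte samples had in addition Teto-Cre and were Dnmt3b+/+, hence Cre but no MYC transgene, and were taken at 24 days of age. The 3 wild-type lymphomas carried Teto-MYC and were Dnmt3bF/F, with loxP sites around the targeted stretch of Dnmt3b but no Cre. The 3 Dnmt3b-deficient lymphomas and the 2 pre-tumor Dnmt3b-deficient samples carried both Teto-MYC and Teto-Cre and were Dnmt3b-/-. The pre-tumor thymi were taken at 24 days and sorted for EGFP-positive cells, whereas tumors were taken once they were apparent and were not sorted, so that sorting and stage cannot be told apart. The labels do not make clear whether normal thymocytes were sorted. Within the lymphomas, Cre cannot be told apart from the Dnmt3b genotype. Against normal thymocytes the MYC transgene goes with tumor stage, Dnmt3bF/F and absence of Cre in the wild-type lymphomas. It goes with tumor stage and Dnmt3b-/- in the Dnmt3b-deficient lymphomas, and with Dnmt3b-/- in the pre-tumor samples. These cannot be told apart within a comparison. Samples of a group are labelled biological replicates, and whether each came from a separate mouse is not spelled out, so the p-values below measure the spread between these samples.

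MAX is the shared partner of this network. A MYC protein (MYC, MYCN or MYCL) binds DNA as a pair with MAX at the E-box and activates genes of ribosome production, metabolism and cell division. MXD1, MXD3, MXD4, MXI1 and MNT also pair with MAX, occupy the same kind of site and repress transcription through SIN3 and histone deacetylases. MLX is a MAX-like partner used by the glucose-sensing factors MLXIP and MLXIPL and by some of the MXD proteins and MNT. In developing T cells MYC is high in dividing precursors, and MXD genes are commonly raised as cells leave the cycle.

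The E-box that MYC-MAX and MXD-MAX pairs bind, CACGTG, reads the same on both strands, and the stretches of member promoters that hold it are shown because the network can act on its own genes through this site. RefSeq promoter windows of assembly GRCm38.p6, from 250 bases before the gene start to 50 after it, were matched for 9 of the 10 members, in 11 windows of which Mxi1 has 3. Myc had none. The motif occurred once in each of 4 members and in no window of Mycn, Mycl, Mxd1, Mxd3 or Mxi1. Each stretch below is written 5′ to 3′ along the gene's strand with the E-box in capitals. The Max stretch is at chr12:76962246-76962291 on the minus strand, Mxd4 at chr5:34187884-34187960 on the minus strand, Mnt at chr11:74830761-74830846 on the plus strand and Mlx at chr11:101087210-101087289 on the plus strand.
Max: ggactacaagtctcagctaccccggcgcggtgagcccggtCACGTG
Mxd4: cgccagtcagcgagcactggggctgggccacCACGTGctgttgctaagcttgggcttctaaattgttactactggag
Mnt: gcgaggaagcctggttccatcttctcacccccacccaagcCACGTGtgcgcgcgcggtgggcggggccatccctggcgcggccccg
Mlx: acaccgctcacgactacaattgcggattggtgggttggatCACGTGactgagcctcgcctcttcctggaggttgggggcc

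The motif's first base lay 219 bases before the start of Mxd4, 123 before Mnt, 40 before Mlx and 3 before Max. With 1 base on each side it read CCACGTGC in Mxd4, CCACGTGT in Mnt, TCACGTGA in Mlx and TCACGTGT in Max. Of all RefSeq genes with such a window, 8.09% held CACGTG in at least 1 window, and of the 15614 genes on the array with a window, 9.5% did. The member windows held between 14 and 49 CpG dinucleotides, against a median of 15 for the genes on the array, with the fewest in Mycn and the most in the Mxi1 window that lies farthest downstream. A match of letters is a description and not evidence that a protein binds there, and DNA methylation is not analysed here.

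The groups differed in more than the network. Thymocyte marker genes, 11 of the 12 listed being measured, had mean log2 levels of 9.93 to 10.08 in the normal samples, 6.98 to 7.55 in wild-type lymphomas, 7.54 to 7.60 in the Dnmt3b-deficient tumors and 8.27 to 8.98 in pre-tumor samples, and 10, 9 and 6 of the 11 fell against normal thymocytes. Without pre-tumor replicate 2, 1 of the 11 fell in the pre-tumor samples. Cd3e, which defines T cells, read 10.25 to 10.58 in the normal samples and 8.70 to 9.28 in wild-type lymphomas. It read 9.02 to 9.11 in the Dnmt3b-deficient tumors and 9.26 to 9.28 in pre-tumor samples. Rag2 was at the lowest value of the table in all 6 lymphomas. Macrophage markers (7 of 8) ranged from 5.07 to 5.27 in normal, 4.81 to 6.60 in wild-type lymphoma, 4.30 to 5.30 in Dnmt3b-deficient lymphoma and 4.39 to 4.62 in pre-tumor samples. Neutrophil markers (6 of 6) ranged from 4.91 to 5.42, 4.18 to 6.80, 3.96 to 6.17 and 3.88 to 3.97 in the same order, B cell markers (5 of 6) from 4.50 to 4.66, 3.89 to 4.51, 4.25 to 4.63 and 4.70 to 5.26, and cell division genes (7 of 8) from 7.57 to 8.23, 8.75 to 8.97, 8.80 to 9.16 and 8.94 to 9.34. Dendritic cell markers (6 of 6) ranged from 6.26 to 6.66, 5.79 to 6.44, 5.37 to 5.76 and 5.66 to 5.97, and 0, 3 and 3 of the 6 fell against normal, those in Dnmt3b-deficient lymphomas and pre-tumor samples being H2-Aa, H2-Ab1 and Cd74, genes of antigen presentation. Without normal replicate 1 or 2 or either pre-tumor sample, 0 of the 6 fell in the pre-tumor samples. Of all probe sets, 10.3% fell against normal in wild-type lymphomas, 10.5% in the Dnmt3b-deficient tumors and 9.88% in the pre-tumor samples. The part of these markers in the results on the network was not tested. In such bulk samples fewer cells of a type and less RNA per cell cannot be told apart. The Dnmt3b probe set read 5.22 to 5.31, 5.36 to 5.70, 5.26 to 5.49 and 5.07 to 5.24 in that order of groups and passed limma in none of the 6 comparisons. The exons it covers are not known from the labels, so it does not check the deletion.

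Against normal thymocytes, the question is how the network differs in the groups that carry the MYC transgene. The same 5 members were lower in wild-type lymphomas, Dnmt3b-deficient lymphomas and pre-tumor thymocytes, namely Myc, Mxd1, Mxd3, Mxd4 and Mlx. No member was higher in any of the 3 groups, and Mycn, Mycl, Max, Mxi1 and Mnt did not pass the test in any. A member is taken to have changed where limma's p, adjusted by Benjamini and Hochberg's method, is under 0.05, with the model fitted to all 4 groups and adjusted over 28939 probe sets. In wild-type lymphomas 5 of 10 members passed as lower, where 10.3% of all probe sets did, and 0 of 10 as higher, where 9.58% did. In Dnmt3b-deficient lymphomas 5 of 10 passed as lower beside 10.5% of probe sets, and 0 as higher beside 9.7%. In pre-tumor thymocytes 5 of 10 passed as lower beside 9.88%, and 0 as higher beside 9.69%. At an unadjusted p under 0.05, none of the other members was higher, and the members passing numbered 6, 5 and 6 of 10. Beside them, 9026, 8757 and 9080 of all 28939 probe sets passed at that threshold in either direction. The median log2 difference of the 10 members was -0.66, -0.69 and -0.75 in that order, beside medians over all probe sets of 0, 0 and -0.02. The 3 comparisons share the same 3 normal samples, so they are not independent of each other.

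**Figure D1:**
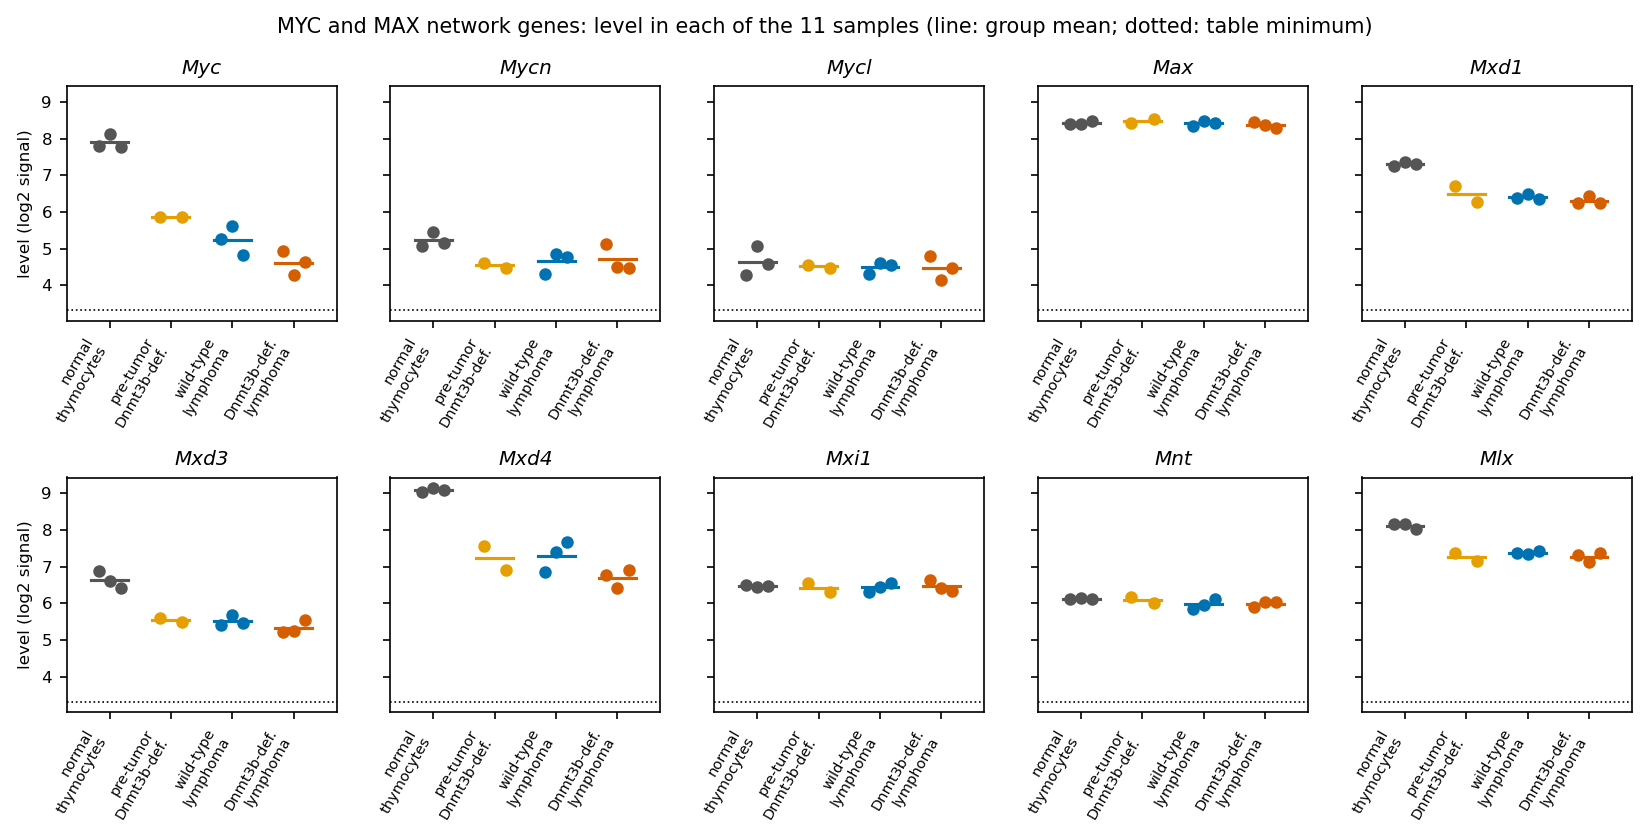
Level of each of the 10 network members in the 11 samples, as deposited log2 signal, with 1 point for each sample, a line at each group mean and a dotted line at the lowest value of the table, 3.32. In the panels of Myc, Mxd1, Mxd3, Mxd4 and Mlx the 3 normal samples lie above all 8 others, while the 11 points of Max span 0.23; levels of different genes cannot be compared, since each probe set has its own response.

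Among the MYC genes, only the probe set of Myc itself passed the test. On the log2 scale it read 7.79, 8.13 and 7.77 in the normal samples, 5.27, 5.62 and 4.83 in wild-type lymphomas, 4.93, 4.29 and 4.63 in the Dnmt3b-deficient tumors, and 5.87 and 5.87 in the pre-tumor samples. All 8 samples with the MYC transgene lay below all 3 normal samples, with a gap of 1.90 to the nearest of them. Against normal thymocytes Myc fell by 2.66 in wild-type lymphomas (SE 0.23, adjusted p = 0.000728), by 3.28 in the Dnmt3b-deficient tumors (SE 0.23, adjusted p = 0.000266) and by 2.03 in the pre-tumor samples (SE 0.26, adjusted p = 0.0032). On the linear scale these levels were 15.8%, 10.3% and 24.6% of normal, with 95% intervals of 10.9% to 23.1%, 7.07% to 15.0% and 16.1% to 37.4%. The Myc levels of the Dnmt3b-deficient tumors lay around the array medians of 4.55 to 4.62, and their detection above background was not tested. Ordered from the most negative difference, Myc was number 73, 39 and 90 of the 28939 probe sets. The sources used here do not say whether this probe set reads the Teto-MYC transgene, so these values describe the signal of the mouse Myc probe set and not the total of MYC RNA.

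Mycn and Mycl are relatives of Myc best known from neural and lung tissue, and neither passed the test. Mycn read 5.06, 5.45 and 5.16 in the normal samples, 4.30, 4.86 and 4.78 in wild-type lymphomas, 5.14, 4.49 and 4.48 in the Dnmt3b-deficient tumors, and 4.61 and 4.47 in the pre-tumor samples. Dnmt3b-deficient lymphoma replicate 1 was the sole sample with the MYC transgene inside the normal range. The Mycn differences of -0.57, -0.52 and -0.68 did not pass (limma adjusted p = 0.125, 0.168 and 0.105), although without that replicate the Mycn difference in the Dnmt3b-deficient tumors was -0.74 and passed (adjusted p = 0.0427). Mycl ranged from 4.29 to 5.07 in the normal samples and from 4.15 to 4.78 in the 8 other samples, and its differences of -0.16, -0.18 and -0.13 lay within the spread of the normal samples. No rise of either gene was measured in the samples in which the Myc probe set was low. In those samples both genes read around the array medians of 4.55 to 4.62, and their detection above background was not tested.

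The MAX gene itself held the narrowest range over the 11 samples among the 10 members, 0.23. Max read 8.41, 8.39 and 8.48 in the normal samples, 8.33, 8.49 and 8.42 in wild-type lymphomas, 8.45, 8.36 and 8.30 in the Dnmt3b-deficient tumors, and 8.43 and 8.53 in the pre-tumor samples, and the groups overlapped. Its differences from normal were -0.01 (95% interval -0.14 to 0.11), -0.06 (-0.19 to 0.07) and 0.05 (-0.10 to 0.19). The sign of the difference in wild-type lymphomas turned to 0.02 when each array was centred on its median.

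Mlx, the MAX-like partner, did fall. Its level was 8.17, 8.17 and 8.03 in the normal samples, 7.37, 7.35 and 7.43 in wild-type lymphomas, 7.31, 7.13 and 7.36 in the Dnmt3b-deficient tumors, and 7.36 and 7.15 in the pre-tumor samples. The groups with the MYC transgene overlapped each other and none reached the normal samples. The Mlx differences were -0.74 (SE 0.08, adjusted p = 0.00116), -0.86 (SE 0.08, adjusted p = 0.000605) and -0.87 (SE 0.09, adjusted p = 0.00167) by limma, or 59.9%, 55.2% and 54.8% of the normal level.

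Of the 5 repressors that pair with MAX, 3 fell and 2 did not pass. The largest difference was in Mxd4, a member of the MXD family expressed in many tissues. Mxd4 read 9.05, 9.14 and 9.09 in the normal samples, 6.86, 7.39 and 7.66 in wild-type lymphomas, 6.76, 6.41 and 6.91 in the Dnmt3b-deficient tumors, and 7.57 and 6.90 in the pre-tumor samples. The normal samples lay close together and above all others, while the wild-type lymphomas spread over 0.80. Against normal thymocytes Mxd4 fell by 1.79 (SE 0.25, adjusted p = 0.00304), by 2.40 (SE 0.25, adjusted p = 0.00092) and by 1.86 (SE 0.28, adjusted p = 0.0052), to 29.0%, 19.0% and 27.6% of normal. It was number 261, 126 and 129 among the most negative of the 28939 probe sets.

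Mxd3, an MXD protein made in dividing cells during S phase, read 6.88, 6.61 and 6.41 in the normal samples, 5.42, 5.69 and 5.48 in wild-type lymphomas, 5.23, 5.24 and 5.54 in the Dnmt3b-deficient tumors, and 5.59 and 5.50 in the pre-tumor samples. All 8 samples with the MYC transgene lay below the normal ones, with differences of -1.11 (SE 0.14, adjusted p = 0.00209), -1.30 (SE 0.14, adjusted p = 0.00102) and -1.09 (SE 0.16, adjusted p = 0.00451). This fall stood beside higher mean levels of the cell division genes in every sample with the MYC transgene. Their median difference was only 0.07, 0.17 and 0.24, and 4 of 7 did not pass in each group. The 3 of 7 such genes that rose in each group were Mki67, Top2a and Bub1. Of these, 1 rose in wild-type lymphomas without wild-type replicate 1 or 2, and 0 in the pre-tumor samples without pre-tumor replicate 2. Mxd1, long known as a repressor that rises when blood cells mature, read 7.25, 7.35 and 7.32 in the normal samples, 6.39, 6.49 and 6.35 in wild-type lymphomas, 6.23, 6.43 and 6.25 in the Dnmt3b-deficient tumors, and 6.70 and 6.27 in the pre-tumor samples. Mxd1 fell by 0.90 (SE 0.11, adjusted p = 0.0018), by 1.00 (SE 0.11, adjusted p = 0.00107) and by 0.82 (SE 0.12, adjusted p = 0.00505), and none of the 8 samples reached the normal range. When only the normal and pre-tumor samples entered the fit, Mxd1 and Mxd3 no longer passed there (adjusted p = 0.0708 and 0.0532).

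Mxi1 and Mnt kept close to their normal levels. Mxi1, the MXD family member also called MXD2, ranged from 6.45 to 6.50 in the normal samples and from 6.30 to 6.65 in the others, and its differences of -0.04, -0.01 and -0.05 had 95% intervals reaching from -0.31 to 0.23 over the 3 comparisons; centring each array on its median turned that in the Dnmt3b-deficient tumors to 0.01. Mnt, a broadly expressed MAX-binding repressor, read 6.13, 6.14 and 6.12 in the normal samples, 5.85, 5.95 and 6.12 in wild-type lymphomas, 5.89, 6.03 and 6.03 in the Dnmt3b-deficient tumors, and 6.17 and 6.02 in the pre-tumor samples. Each lymphoma lay below each normal sample, yet the Mnt differences of -0.16 and -0.14 did not pass limma (adjusted p = 0.203 and 0.266), and that of the pre-tumor samples was -0.03 (adjusted p = 0.976). Of the 4 members whose promoter window held CACGTG, Mxd4 and Mlx had fallen and Max and Mnt did not pass the test. Of the 5 whose windows lacked it, Mxd1 and Mxd3 had fallen and Mycn, Mycl and Mxi1 did not pass.

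**Figure D2:**
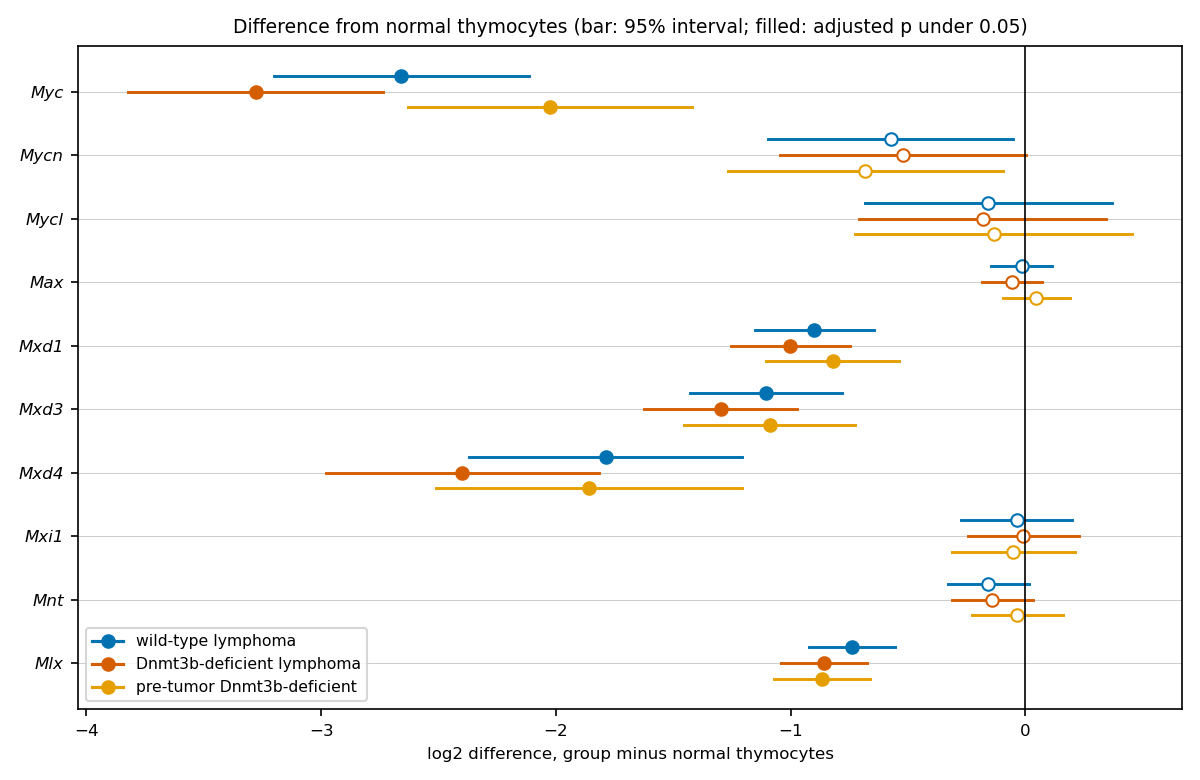
Log2 difference of each member between each group with the MYC transgene and normal thymocytes, from limma, with bars for the 95% interval and filled points for adjusted p under 0.05. The filled points of Myc, Mxd1, Mxd3, Mxd4 and Mlx all lie left of 0, and every bar of Mycl, Max, Mxi1 and Mnt crosses 0.

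Between Dnmt3b-deficient and wild-type lymphomas, which asks what loss of Dnmt3b does within the tumors, no member passed the test. The count was 0 of 10, where 0.00691% of all probe sets (2 of 28939) passed limma in either direction. At an unadjusted p under 0.05 there were 2 of 10 members, Myc and Mxd4, and both were lower in the Dnmt3b-deficient tumors. Of all 28939 probe sets, 1823 had an unadjusted p under 0.05 in either direction. Myc was 4.62 ± 0.32 (SD, n = 3) in Dnmt3b-deficient and 5.24 ± 0.40 (SD, n = 3) in wild-type lymphomas, a difference of -0.62 with a 95% interval of -1.16 to -0.08 (limma, unadjusted p = 0.0301, adjusted p = 0.757). The ranges overlapped, since wild-type replicate 3 at 4.83 lay below Dnmt3b-deficient replicate 1 at 4.93. Mxd4 was 6.69 ± 0.26 and 7.30 ± 0.41 (SD, n = 3 each), a difference of -0.61 with an interval of -1.19 to -0.03 (limma, unadjusted p = 0.0423, adjusted p = 0.767), also with overlap. The other 8 members differed by -0.19 (Mxd3) to 0.05 (Mycn).

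Relative to the pre-tumor thymocytes of the same genotype, Dnmt3b-deficient lymphomas had 0 of 10 members past the test, where 0.0691% of probe sets passed. Myc had the smallest p of the members: the 3 tumors, at 4.29 to 4.93, all lay below the pre-tumor samples, at 5.87 each, and differed by -1.25 (95% interval -1.86 to -0.65, limma unadjusted p = 0.00159, adjusted p = 0.182). It was the single member of 10 with an unadjusted p under 0.05 here, where 2730 of all 28939 probe sets had one. Mxd4 differed by -0.54 (-1.19 to 0.11), and the remaining members by -0.21 (Mxd3) to 0.16 (Mycn). Wild-type lymphomas against the pre-tumor thymocytes, which differ in stage, genotype, Cre and sorting at once, also had 0 of 10 past the test, where 0.107% of probe sets passed. There Myc differed by -0.63 (-1.24 to -0.03, limma unadjusted p = 0.0427, adjusted p = 0.613) without overlap, and no other member had an unadjusted p under 0.05. Of all 28939 probe sets, 2248 had one in this comparison.

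**Figure D3:**
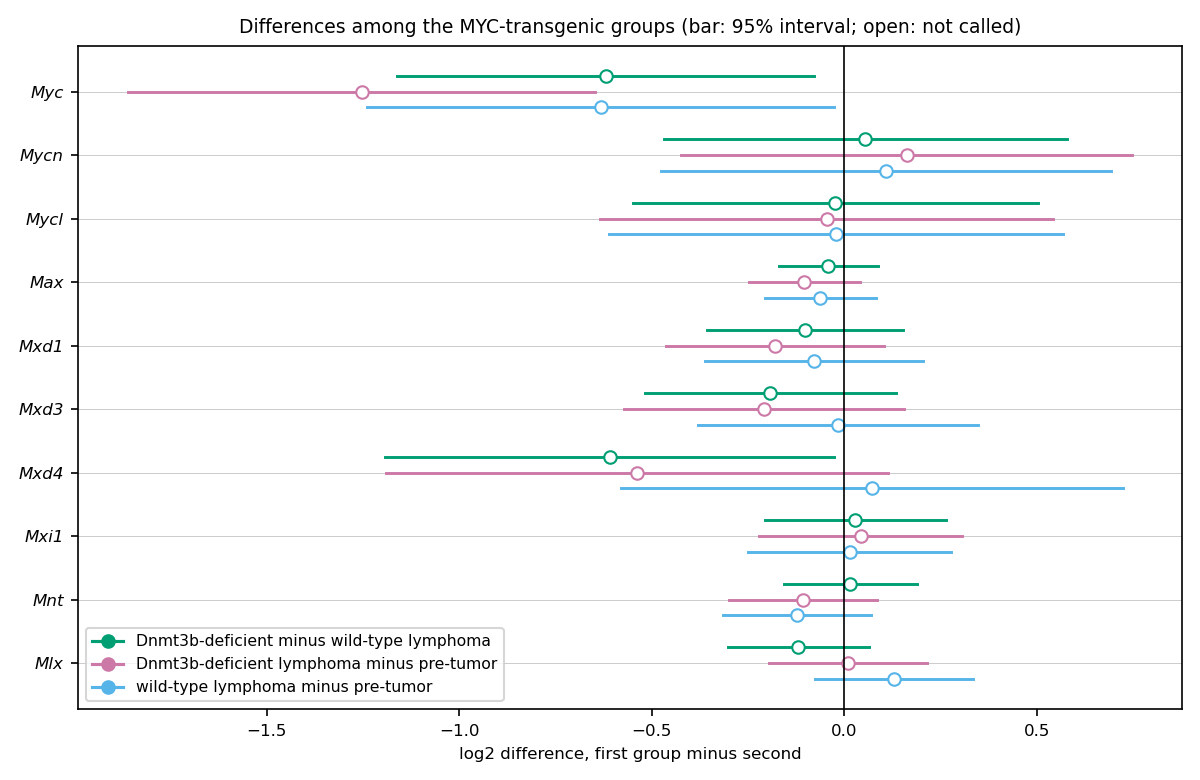
Log2 difference of each member between the 3 groups that carry the MYC transgene, first group minus second, with 95% intervals from limma. All points are open because none passed at adjusted p under 0.05; the intervals of Myc lie left of 0 in all 3 comparisons and that of Mxd4 in 1.

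By group mean, the order of Myc was normal thymocytes, pre-tumor thymocytes, wild-type lymphomas and Dnmt3b-deficient lymphomas, at 7.90, 5.87, 5.24 and 4.62. Only the first step in this order, from normal to pre-tumor, passed the test; the later neighbours did not. Mxd1 and Mxd3 had the same order, with means of 7.31, 6.49, 6.41 and 6.31 and of 6.63, 5.54, 5.53 and 5.34. For Mxd4 the order was normal, wild-type lymphoma, pre-tumor and Dnmt3b-deficient lymphoma (9.09, 7.30, 7.23 and 6.69), and for Mlx it was normal, wild-type lymphoma, Dnmt3b-deficient lymphoma and pre-tumor (8.12, 7.38, 7.26 and 7.26). In each of these the step below normal was the sole one past the threshold. The highest minus the lowest group mean was 3.28 for Myc, 2.40 for Mxd4, 1.30 for Mxd3, 1.00 for Mxd1, 0.87 for Mlx and 0.68 for Mycn, and between 0.05 and 0.18 for Mycl, Mnt, Max and Mxi1.

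The genes most like a member over the 11 samples were found for the 4 members whose group means spanned at least 1 log2 unit, by the root mean square difference of mean-centred levels. For Myc they were Ankrd50 (0.26), Ets2 (0.32), Chrna9 (0.33), Nfkbie (0.34) and Atp10a (0.35), which include an ETS family transcription factor (Ets2) and an inhibitor of NF-kappaB (Nfkbie). For Mxd4 they were Znrf1 (0.14), Trp53i11 (0.22), Rnf167 (0.22), Ypel3 (0.23) and Sin3b (0.23). For Mxd1 they were Ulk1 (0.07), a kinase that starts autophagy, Gdf11 (0.09), Fam168b (0.11), Dnajc5 (0.11) and Cep85 (0.11). For Mxd3 they were Bcl7b (0.10), Ppp6r2 (0.11), Gabarap (0.11), Lysmd1 (0.11) and Nipal3 (0.12). These genes were picked for likeness in all 11 samples, most of which lies in the step between normal thymocytes and the rest, so their own differences are a description. Ranking by Pearson's r in its place kept 1, 1, 2 and 1 of the 5 genes for Myc, Mxd1, Mxd3 and Mxd4. Within the network the nearest pairs were Max with Mxi1 (0.11), Mnt with Max (0.12) and Mxd1 with Mlx (0.15). Myc was no nearer than 0.53 to any member, Mxd4 being the closest. This distance depends on the size of the differences as well as their pattern. Group means spanned 0.10 for Max, 0.05 for Mxi1 and 0.16 for Mnt, against 3.28 for Myc.

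**Figure D4:**
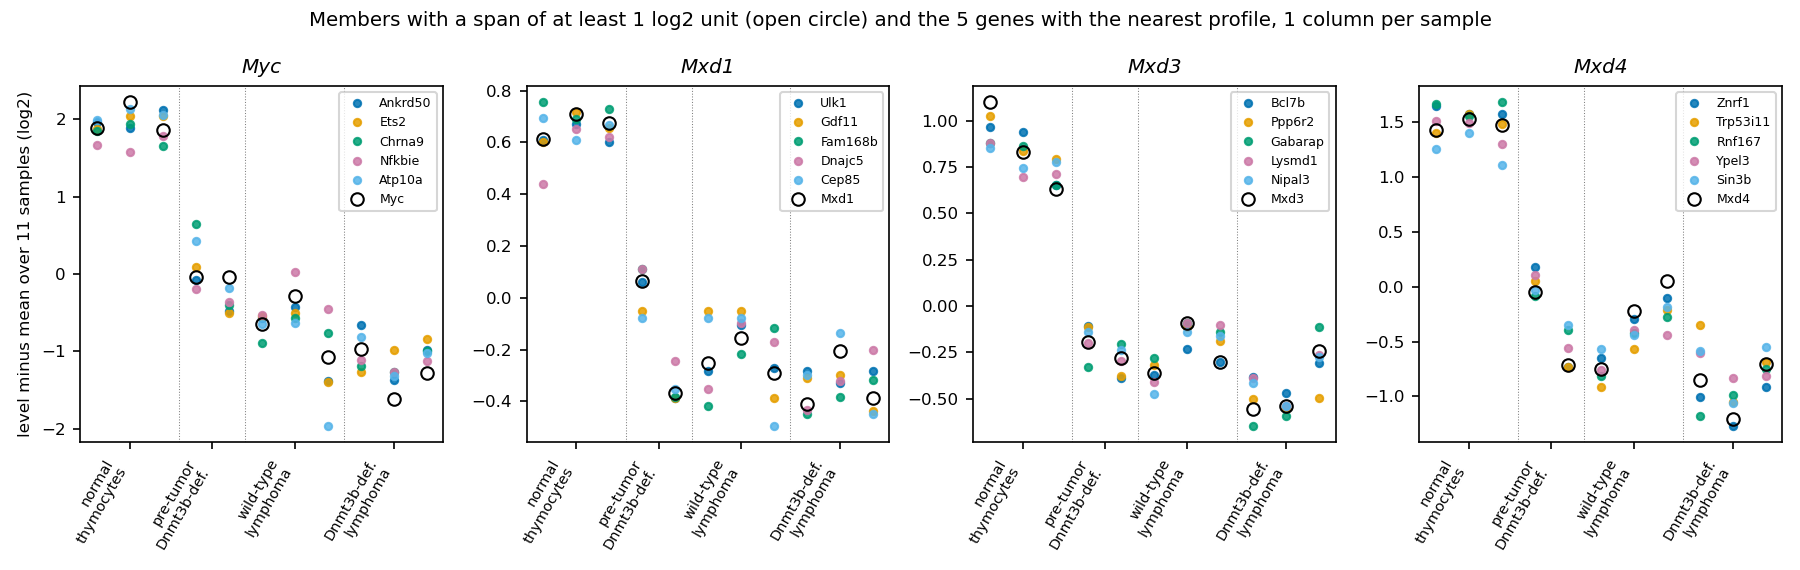
Mean-centred log2 levels of Myc, Mxd1, Mxd3 and Mxd4 (open circles) and of their 5 nearest genes (filled circles), with 1 column for each of the 11 samples in the order normal, pre-tumor, wild-type lymphoma and Dnmt3b-deficient lymphoma. In each panel the circles of the 3 normal samples stand highest and those of the 8 others lie lower; the vertical scale differs between panels.

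The partners of the network outside the 10 members were Mga, Mlxip and Mlxipl. Mga, a MAX-binding protein with a T-box domain, was higher in all 3 groups, by 1.71 (SE 0.41, adjusted p = 0.0235), 1.59 (SE 0.41, adjusted p = 0.0307) and 2.01 (SE 0.46, adjusted p = 0.0206) by limma. The Mga calls lay near the threshold. With the replicate number as a block, none of the 3 passed (limma adjusted p = 0.0679, 0.0822 and 0.0673). Nor did any with only the 2 groups compared in the fit (0.0721, 0.122 and 0.129). In wild-type lymphomas the Mga call was also lost without wild-type replicate 1 (0.079) or 3 (0.0645). In the Dnmt3b-deficient tumors it was lost without normal replicate 1 (0.0597) or 2 (0.0522) or wild-type replicate 1 (0.0503). It was lost there as well without Dnmt3b-deficient replicate 1 (0.0699) or 2 (0.1). Without pre-tumor replicate 1 or 2, which left 1 sample in that group, the Mga difference in the pre-tumor samples was 2.21 or 1.81. These are given as sizes only and do not show that the call held. Mlxip (0.12, 0.12 and 0.07) and Mlxipl (0.03, 0.07 and 0.01), the glucose-sensing partners of MLX, did not pass, so that 1 of 3 partners rose and 0 fell in each comparison. The counts of this and the following lists stand beside 9.58%, 9.7% and 9.69% of all probe sets that rose. The share of all probe sets that fell was 10.3%, 10.5% and 9.88%.

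MGA and MAX are also subunits of the polycomb complex PRC1.6, which keeps germline genes silent. Of its 10 measured genes other than Max, 6 rose and 0 fell in wild-type lymphomas, 5 rose and 1 fell in the Dnmt3b-deficient tumors, and 5 rose and 1 fell in the pre-tumor samples, with median differences of 0.77, 0.73 and 0.57. Besides Mga, the largest rises were in Pcgf6 (1.65, 1.78 and 1.71, adjusted p = 0.00226, 0.00144 and 0.00418), the subunit that defines the complex, in the heterochromatin protein gene Cbx3 (1.39, 1.35 and 1.55) and in Tfdp1 (0.97, 1.19 and 0.89, adjusted p = 0.000954, 0.000414 and 0.00267), the partner of E2F factors. Ring1 was the gene that fell, by 0.40 in the Dnmt3b-deficient tumors and by 0.70 in the pre-tumor samples. Rybp was not called by its brighter probe set, the one counted here. Its other probe set did pass as lower in the Dnmt3b-deficient tumors, where the 2 differed from normal by -0.54 and -0.32 (in order of size). The number that rose was 3 without wild-type replicate 1, without Dnmt3b-deficient replicate 2 and without pre-tumor replicate 2, each in its own comparison, and Cbx3 no longer passed there (adjusted p = 0.0657, 0.0683 and 0.138), nor in wild-type lymphomas without wild-type replicate 2 (0.052). Without normal replicate 2 or Dnmt3b-deficient replicate 1 or 2, none fell in the Dnmt3b-deficient tumors, and without Dnmt3b-deficient replicate 1 or 2, 2 fell in the pre-tumor samples. In wild-type lymphomas, 1 fell once replicate 3 of either tumor group was left out. With only the 2 groups compared in the fit, 1 of the 10 rose in the pre-tumor samples. Pcgf6 (limma adjusted p = 0.0505), Cbx3 (0.119) and Mga (0.129) did not pass in that fit.

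The corepressors that MXD proteins and MNT recruit, counted with Zbtb17 (Miz1, through which MYC represses), numbered 10 measured of 12 listed, and 3 rose and 4 fell in each comparison. Sin3b, a direct binding partner of MXD proteins, fell most, by 1.66, 1.99 and 1.45 (SE 0.17, 0.17 and 0.19; adjusted p = 0.00109, 0.000523 and 0.0036). Those that rose were Hdac2 (1.24, 1.00 and 1.51), Rbbp7 (1.23, 1.52 and 1.34) and Sap18 (0.84, 0.82 and 0.87), and those that fell beside Sin3b were Rbbp4, Suds3 and Zbtb17. In wild-type lymphomas 0 rose without normal replicate 2 or wild-type replicate 1, in the Dnmt3b-deficient tumors 1 rose without normal replicate 1, 2 or 3 or Dnmt3b-deficient replicate 2, and in the pre-tumor samples 0 rose without pre-tumor replicate 2 and 1 without normal replicate 2. The 4 genes that fell numbered at least 3 without any 1 library in either lymphoma comparison and in the pre-tumor samples. Sin3b passed in every alternative of all 3 comparisons.

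Genes known to be induced by MYC moved up while the Myc probe set was low. Of 29 measured of 30 listed, 24 rose in wild-type lymphomas, 24 in the Dnmt3b-deficient tumors and 22 in the pre-tumor samples, and 0, 0 and 1 fell, with median differences of 1.19, 1.48 and 1.11. The list was drawn up from general knowledge with earlier results of these data known, so it is no independent evidence of its direction. The largest rises were in the ribosome production genes Dkc1 (adjusted p = 0.00199, 0.00112 and 0.0035), Npm1 (adjusted p = 0.000858, 0.000577 and 0.0014), Nop58 (3.28, 3.49 and 3.47) and Ncl (3.20, 3.46 and 3.43), and in the transferrin receptor gene Tfrc (3.84, 3.40 and 3.50); Dkc1 rose by up to 4.01 and Npm1 by up to 3.93. Without pre-tumor replicate 2, Tfrc did not pass in the pre-tumor samples (0.0678), and with only the 2 groups in the fit 11 of the 29 rose there. The gene that fell was Mcm7, a replication helicase subunit, by 0.31 in the pre-tumor samples (adjusted p = 0.0221), and 0 fell without normal replicate 1, 2 or 3 or pre-tumor replicate 2. Genes known to be repressed by MYC, 9 measured of 10, had 4, 3 and 3 that fell and 0 that rose, with medians of -0.80, -0.68 and -0.40. They were the CDK inhibitor Cdkn1b (-1.75, -2.27 and -1.41, adjusted p = 0.000584, 0.000174 and 0.00227; a second probe set, at -1.08, did not pass in the pre-tumor samples), Txnip (-1.68, -1.75 and -1.85), a brake on glucose uptake that is also a target of MLX complexes, Gadd45a (-1.05, -1.25 and -0.84) and, in wild-type lymphomas, Ndrg1 (-2.03, adjusted p = 0.0358). Without pre-tumor replicate 2, 1 fell in the pre-tumor samples, and without Dnmt3b-deficient replicate 1, 5 fell in the Dnmt3b-deficient tumors. Ndrg1 did not pass without any 1 of the normal, wild-type or pre-tumor samples (adjusted p of up to 0.111), and Txnip (0.0535) and Gadd45a (0.0802) were not past the threshold in the pre-tumor samples without pre-tumor replicate 2, nor was Gadd45a without normal replicate 1 (0.0568) or 2 (0.0651) or pre-tumor replicate 1 (0.111).

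**Figure D5:**
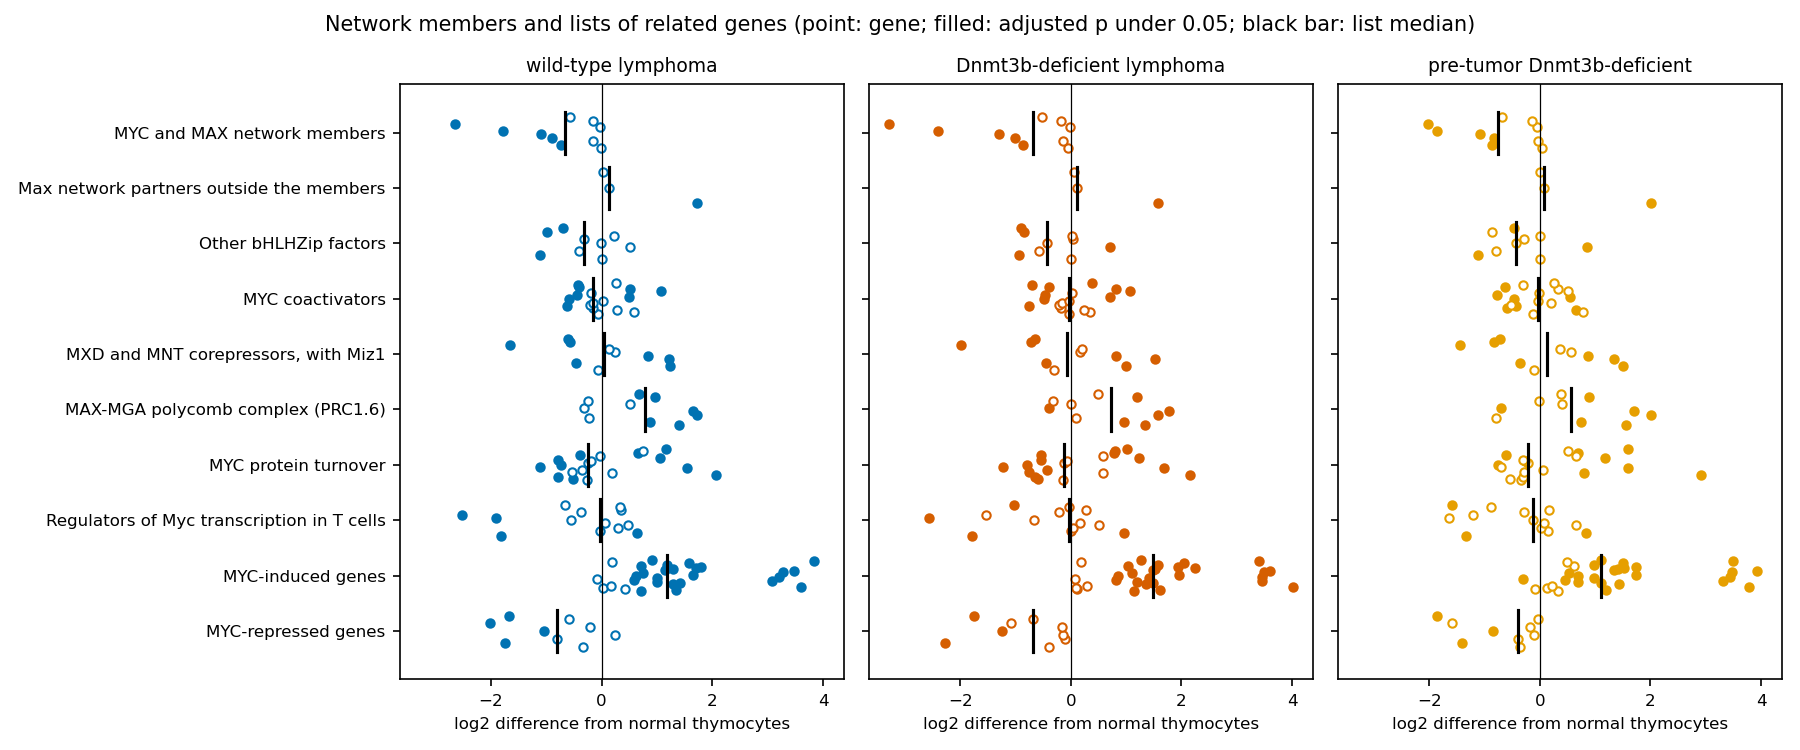
Log2 differences from normal thymocytes of the network members and of the genes of each related list, 1 panel for each group, with 1 point for each gene, filled at adjusted p under 0.05, and a black bar at the list's median. The median of the members is -0.66, -0.69 and -0.75 from left to right and that of the MYC-induced genes is 1.19, 1.48 and 1.11.

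Regulators of Myc transcription in T cells, 13 measured of 14, had 1 that rose and 3, 3 and 2 that fell. Bcl11b, a T lineage factor, fell by 1.82, 1.78 and 1.33 (adjusted p = 0.00151, 0.00139 and 0.00897), and Cnbp, a nucleic acid binding protein that acts on the Myc promoter, rose by 0.64, 0.96 and 0.83. Notch1, a receptor that drives Myc in T cell precursors, fell by 2.52 in wild-type lymphomas (adjusted p = 0.00886), and its differences of -1.54 and -1.22 in the other groups did not pass. Lef1 fell by 1.91 and 2.55 in the wild-type and Dnmt3b-deficient lymphomas, and Stat5b fell by 1.02 in the Dnmt3b-deficient tumors and by 1.59 in the pre-tumor samples. Lef1 lost its call in wild-type lymphomas without any 1 normal or wild-type sample (adjusted p of up to 0.0862), and Stat5b lost it in the Dnmt3b-deficient tumors without any 1 normal sample (up to 0.0994) or wild-type replicate 1 (0.0529) or 2 (0.06). Without pre-tumor replicate 2, no gene of this list passed in the pre-tumor samples (adjusted p = 0.0747 for Bcl11b, 0.0642 for Cnbp and 0.104 for Stat5b). Without Dnmt3b-deficient replicate 1, 6, 5 and 4 fell, and without wild-type replicate 3, 2 rose in wild-type lymphomas.

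Genes that set how long the MYC protein lasts, 19 measured of 20, had 5 that rose and 6 that fell in wild-type lymphomas, 6 and 8 in the Dnmt3b-deficient tumors, and 6 and 2 in the pre-tumor samples. The largest rises were in Cip2a, an inhibitor of the phosphatase that destabilises MYC (2.06, 2.16 and 2.92, adjusted p = 0.0159, 0.0123 and 0.00771), and in the ubiquitin ligase gene Huwe1 (by 1.53 and 1.69 in the lymphomas, adjusted p = 0.00331, 0.00197 and, in the pre-tumor samples, 0.00564). Set, another inhibitor of that phosphatase, rose by 1.05, 1.23 and 1.18, although its dimmer probe set, at 0.53, did not pass in wild-type lymphomas. Usp37, a deubiquitinase, rose by 1.16 in wild-type lymphomas, where it did not pass without wild-type replicate 1, 2 or 3 or normal replicate 1 or 2 (adjusted p of up to 0.0917), and by 1.59 in the pre-tumor samples. Without pre-tumor replicate 2, none of the 19 passed in the pre-tumor samples (Cip2a adjusted p = 0.0708, Huwe1 0.0521, Usp37 0.119 and Set 0.117). The kinase gene Pim1 fell by 1.12 and 1.22 in the wild-type and Dnmt3b-deficient lymphomas, but these calls were lost without any 1 normal sample (adjusted p of up to 0.126 and 0.097). The Pim1 call in wild-type lymphomas was also lost without wild-type replicate 1 or 3 or any 1 Dnmt3b-deficient or pre-tumor sample (up to 0.109), and that in the Dnmt3b-deficient tumors without any 1 of them or wild-type replicate 1 (up to 0.0939). Without 1 of normal replicates 1 and 2 or wild-type replicates 1 and 2, 2 or 3 genes rose in wild-type lymphomas, Cip2a among those lost without wild-type replicate 1 (0.0597). Without normal replicate 1 or 2 or wild-type replicate 1, 2 or 3 fell there. In Dnmt3b-deficient lymphomas 3 to 5 fell without any 1 normal or Dnmt3b-deficient sample or wild-type replicate 1.

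Coactivators of MYC, 17 measured of 18, moved both ways, with 3, 4 and 2 that rose and 5 that fell in each comparison. Beside these counts, 9.58%, 9.7% and 9.69% of all probe sets rose and 10.3%, 10.5% and 9.88% fell. Ruvbl1, an ATPase of the TIP60 complex, rose by 1.07 in both lymphoma groups (adjusted p = 0.00222 and 0.00186) and Ruvbl2, its partner, by 0.51 and 0.81, the former lost without any 1 normal or wild-type sample (adjusted p of up to 0.0854). The acetyltransferase gene Crebbp fell by 0.63, 0.75 and 0.43, the last lost without pre-tumor replicate 1 (0.0653) or 2 (0.112), and Trrap, the scaffold that MYC recruits, fell by 0.43 and 0.71 in the lymphomas. In the pre-tumor samples the largest differences were in Kat5 (-0.77), Ccnt1 (0.65, adjusted p = 0.00489), Supt5 (-0.63) and Cdk9 (-0.60), of which Kat5 was lost without pre-tumor replicate 1 (0.0512) and Supt5 (0.1) and Cdk9 (0.0519) without pre-tumor replicate 2. In wild-type lymphomas 1 rose without normal replicate 1 or 3 or wild-type replicate 3, and 3 fell without normal replicate 1 or 2, wild-type replicate 1 or 2 or Dnmt3b-deficient replicate 2 or 3. In the Dnmt3b-deficient tumors 3 fell without normal replicate 1 or 2, wild-type replicate 2 or 3 or any 1 Dnmt3b-deficient sample. In pre-tumor thymocytes 1 rose without normal replicate 1 or pre-tumor replicate 1 or 2, and 3 and 1 fell without pre-tumor replicates 1 and 2. The other bHLHZip factors, which bind E-boxes without MAX, were all 9 measured, and 0, 1 and 1 rose and 3, 3 and 2 fell. Srebf1, which drives lipid synthesis, fell by 1.12, 0.93 and 1.12, Usf2 by 0.70, 0.89 and 0.47, Usf1 by 0.99 and 0.85 in the lymphomas, and Tfap4, a target of MYC, rose by 0.71 in the Dnmt3b-deficient tumors and by 0.86 in the pre-tumor samples. Usf1 did not pass without normal replicate 1 or 2 in wild-type lymphomas (adjusted p of up to 0.0824), nor in the Dnmt3b-deficient tumors without normal replicate 1 or 2 or any 1 Dnmt3b-deficient or pre-tumor sample (up to 0.132). Without normal replicate 1 or 2 or Dnmt3b-deficient replicate 2, 1 of these fell in the Dnmt3b-deficient tumors, and Tfap4 did not pass there without normal replicate 2 or 3 or Dnmt3b-deficient replicate 2 or 3 (adjusted p of up to 0.0738). In the pre-tumor samples Tfap4 did not pass without normal replicate 3 or pre-tumor replicate 1 (up to 0.0687). There 0 fell without pre-tumor replicate 2 (Srebf1 at 0.11 and Usf2 at 0.211) and 1 without normal replicate 1 or 2, wild-type replicate 2 or Dnmt3b-deficient replicate 2 or 3. In wild-type lymphomas 1 rose without wild-type replicate 3 or either pre-tumor sample. No gene of the lists of network partners, cofactors, regulators and targets passed the test between the 3 groups with the MYC transgene. Of the cell type markers, Dntt, which adds bases at antigen receptor joints in thymocytes, was lower in wild-type lymphomas than in pre-tumor samples by a difference of -3.95 (limma adjusted p = 0.0251), a call lost without any 1 normal sample or wild-type replicate 1 or 2 (up to 0.0812) and with the 2 groups alone in the fit (0.22).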

How the data were processed

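The deposited values are log2 signals made with Partek and RMA, per the submitters' processing notes, which give no versions. The authors' genome build was not given in the sources used here. The lowest value of the deposited table is 3.32, log2 of 10, which 23.6% to 25.7% of values on each array equal. Array medians were 4.55 to 4.62, and no further normalization was applied. Of 35512 probe sets, 28939 were tested, leaving out probable controls. A linear model with 1 mean for each of the 4 groups was fitted with limma 3.58.1 in R 4.3.3 (lmFit, eBayes), with Benjamini-Hochberg adjustment over all tested probe sets, in 6 comparisons. Where a listed gene has several probe sets, the one with the highest mean was used. The fit was tested on simulated data. The members and lists were chosen with earlier results of these data known. All 10 members are described in every comparison. Up to 4 genes past the threshold with the largest differences are named from each list, and 5 nearest genes for each member whose group means span at least 1. Predicted genes, small RNAs and receptor segments were left out of the nearest genes. Alternatives were quantile normalization, centring on array medians, a variance trend, filters on dim probe sets, all probe sets, a replicate block, only the groups compared, and leaving out each sample. Arrays have no read depth, and their number limits the precision.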

Additional observations from a re-analysis of the deposited data

How the results depend on the processing

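Each comparison was refitted under 19 alternatives. The count of members past the test stayed at 5 in wild-type lymphomas against normal thymocytes under all 19. It stayed at 0 in the comparisons among the groups with the MYC transgene. In Dnmt3b-deficient lymphomas against normal thymocytes the count was 5 to 6, also over the refits that left out each sample in turn. In pre-tumor thymocytes against normal thymocytes it was 3 when only those groups were fitted, where fewer samples set the spread, since Mxd1 (adjusted p = 0.0708) and Mxd3 (0.0532) no longer passed. No value past the test turned sign in 285 refits. Mycn in pre-tumor thymocytes passed once the dimmest probe sets were left out (adjusted p = 0.048), and in Dnmt3b-deficient lymphomas without replicate 1 of that group (0.0427). Of 855 refits of values not past the test, 46 turned sign, 42 of them on leaving out 1 sample, in values no larger than 0.18. Samples with the same replicate number had deviations from their group means that correlated by -0.33 to 0.32 over 15 pairs. The deviations of the 2 pre-tumor samples mirror each other, so these values cannot settle whether equal numbers pair the samples. With the number as a block the same counts of members passed in limma. Myc was then at -2.66 (adjusted p = 0.00545), -3.28 (0.00289) and -2.11 (0.0177) against normal. Over all probe sets, 5755, 5860 and 5662 passed against normal, and without wild-type replicate 1, 3664 did in wild-type lymphomas, and without pre-tumor replicate 2, 1712 in pre-tumor thymocytes. With 2 or 3 arrays in a group, differences among the groups with the MYC transgene of the size seen for Myc and Mxd4 did not reach the threshold.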
